A study of Mus musculus with 16 samples.

Results

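The genes of cholesterol synthesis, sterol sensing, cholesterol efflux and intracellular sterol transport were followed in WT and Cfp1-/- mouse ES cells with and without the DNA damaging agent doxorubicin. The set was a list of 28 genes chosen by name for their roles, and 27 of them were found among the 22375 genes of the count tables. Hmgcs1, an early enzyme of the mevalonate pathway, was not found by symbol and was not analysed here. All 27 genes passed the filter on low counts, with 82 to 3660 counts per library. With library sizes scaled by TMM (trimmed mean of M values), doxorubicin lowered the RNA of Sqle, Cyp51, Ebp, Sc5d, Fdft1, Mvd and Insig1 and raised that of Abcg1 and Scap in both lines. The calls of Sc5d, Mvd and Insig1 were lost in some alternative fits. Abca1 rose in Cfp1-/- cells and was the 1 gene of the 27 whose response was called different between the lines. That call was kept in 10 of 16 alternative fits.

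Cells make cholesterol from acetyl-CoA through mevalonate, isoprenyl diphosphates, squalene and lanosterol. The transcription factors SREBP-1 and SREBP-2 switch on these genes when the endoplasmic reticulum is low in sterol: their escort protein SCAP then carries them to the Golgi apparatus for cleavage, while the INSIG proteins hold the complex back when sterol is plentiful. The LXR nuclear receptors respond to oxysterols and act in the opposite direction, through the efflux pumps ABCA1 and ABCG1 and through MYLIP, a ubiquitin ligase that removes lipoprotein receptors. Proliferating ES cells need sterol and isoprenoids for new membrane.

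RNA was sequenced from 4 groups, each of 2 biological replicates with 2 technical replicates, which makes 16 samples. WT cells were E14Tg2a, an ES cell line, and the Cfp1-/- cells lack Cfp1, the CpG-binding subunit of the Set1 histone H3 lysine 4 methyltransferase complex; both are of strain 129/OLA and were grown with serum and LIF on gelatin, without feeder cells being named. Treated cells received doxorubicin for 6 h, at 1 μM by the treatment protocol and at 1 mM by the treatment label of the same samples. Untreated cells are labelled as controls, and each genotype is represented by a single line, so that the loss of Cfp1 cannot be told apart from other differences between the lines. The replicates are not described further, so p-values measure the spread between these cultures, and in bulk RNA fewer cells of a type and less RNA per cell cannot be told apart.

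Total counts per biological replicate ranged from 11772320 to 29422711. Cxxc1, which encodes Cfp1, had 616 to 1412 counts in the 4 WT libraries and 1 to 4 counts in the 4 Cfp1-/- libraries. The 10 ES cell markers examined, among them Pou5f1, Sox2 and Zfp42, summed to 3344 to 4575 CPM (the count of a gene relative to the TMM-scaled size of its library) in untreated WT cells and to 1330 to 1820 CPM after doxorubicin. In the Cfp1-/- line the sums were 3981 to 4075 CPM and 1582 to 1827 CPM. Single markers differed within these sums. In untreated cells Nanog had 300 and 170 CPM in WT and 673 and 617 CPM in the Cfp1-/- line. Zfp42 went the other way, with 732 and 465 CPM in WT and 241 and 240 CPM in the Cfp1-/- line. Dppa5a had 388 and 286 CPM in untreated and 393 and 254 CPM in treated WT cells. The part of these marker differences in the results below was not tested. One run, the second of treated Cfp1-/- replicate 1, had no counts for 209 of 291 well-covered genes of chromosome 19, 225 of 280 of chromosome X and 5 of 5 of chromosome Y, and for 0 of 7744 others. Tm7sf2, Ebp and Nsdhl lie in the missing stretches. This run was therefore left out of the values given here unless stated, and treated Cfp1-/- replicate 1 rests on a single run. The mean normalized counts used for the limits of the study are an exception, since they include this run.

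The promoters of some genes of the set are shown first, because sterol regulation is read from short motifs near the start site. RefSeq (GRCm38.p6, a later build than that of the counts) gave a promoter for 21 of the 27 genes, 29 promoters in all. Sqle, Fdft1, Fdps, Abcg1, Npc1 and Stard4 had none there and were not searched. The 250 bases before each start were searched on both strands. In the following sequences, written 5′ to 3′ along the gene and ending at the base before the start, capitals mark the CCAAT box (CCAAT, bound by NF-Y, a partner of SREBP), the E-box (CACGTG) and the core of the sterol regulatory element (CACNCCAC), or their reverse complements.
Insig1 (chr5:28071162-28071411, plus strand): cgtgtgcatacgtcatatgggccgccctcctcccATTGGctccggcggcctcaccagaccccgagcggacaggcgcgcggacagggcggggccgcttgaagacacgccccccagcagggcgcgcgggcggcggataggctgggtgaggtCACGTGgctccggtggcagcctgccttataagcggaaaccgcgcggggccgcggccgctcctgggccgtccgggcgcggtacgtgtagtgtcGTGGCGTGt
Cyp51 (chr5:4104698-4104947, minus strand): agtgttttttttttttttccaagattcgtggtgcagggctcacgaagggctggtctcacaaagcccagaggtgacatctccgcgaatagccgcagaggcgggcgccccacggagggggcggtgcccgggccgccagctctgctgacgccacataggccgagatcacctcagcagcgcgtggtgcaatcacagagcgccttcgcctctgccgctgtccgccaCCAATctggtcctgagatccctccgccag
Msmo1 (chr8:64733579-64733828, minus strand): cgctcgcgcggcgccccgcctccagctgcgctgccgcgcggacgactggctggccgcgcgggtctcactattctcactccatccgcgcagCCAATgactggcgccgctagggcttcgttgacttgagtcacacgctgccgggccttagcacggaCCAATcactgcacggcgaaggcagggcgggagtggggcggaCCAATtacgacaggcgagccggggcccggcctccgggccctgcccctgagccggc
Abca1 (chr4:53159896-53160145, minus strand): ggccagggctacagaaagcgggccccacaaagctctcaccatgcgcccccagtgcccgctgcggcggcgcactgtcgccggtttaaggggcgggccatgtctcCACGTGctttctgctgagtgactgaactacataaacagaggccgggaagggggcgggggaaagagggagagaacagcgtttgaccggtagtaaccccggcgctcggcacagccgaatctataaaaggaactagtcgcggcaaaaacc
Scap (chr9:110333106-110333355, plus strand): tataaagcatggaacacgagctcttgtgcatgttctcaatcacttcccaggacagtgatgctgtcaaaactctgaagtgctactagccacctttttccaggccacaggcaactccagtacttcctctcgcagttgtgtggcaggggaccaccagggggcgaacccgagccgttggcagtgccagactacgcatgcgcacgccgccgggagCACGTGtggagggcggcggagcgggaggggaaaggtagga

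Insig1 held all 3 marked motifs, with the sterol regulatory element core at bases -9 to -2, the E-box at -101 to -96 and the CCAAT box at -216 to -212. Cyp51 held 1 CCAAT box and Msmo1 held 3. Abca1 and the Scap promoter shown (1 of a pair in the RefSeq table) held an E-box and no CCAAT box. The other Scap promoter of the pair held none of the marked motifs. Over the set, CCAAT was found in 18 of 21 genes and in 19 of 29 promoters, against 33.8% of all 32851 promoters of the same length, and in 13 of the 14 synthesis genes with a promoter. The GC-rich SP site (GGGCGG) was found in 20 of 21 genes and 23 of 29 promoters, against 32.7% of all. The E-box was found in 6 genes (Abca1, Dhcr7, Hsd17b7, Insig1, Sc5d and Scap), in 6 of 29 promoters, against 6.02% of all. The core CACNCCAC was found in 2 genes, Acat2 and Insig1, in 2 of 29 promoters, against 5.29% of all promoters. The longer form TCACNCCAC, which contains the core, was found in 0 of 29 against 1.05% of all. A match describes the letters of this window only, and other forms of the sterol regulatory element were not searched for.

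Levels differed widely among the genes before treatment. On the scale of CPM per kilobase of merged exon, Fdps, the synthase of farnesyl diphosphate, was the highest in untreated WT cells at 115 ± 23.9 (SD, n = 2). It was followed by Fdft1 at 41.5 ± 4.06, Insig1 at 32.9 ± 6.21 and Cyp51 at 31.3 ± 0.878, and the last pair did not differ beyond their spread. The lowest were Abcg1 at 2.28 ± 0.372, Mylip at 1.93 ± 0.0980 and Tm7sf2, a sterol C14 reductase, at 1.41 ± 0.375 CPM per kilobase. Values below are CPM, which compare a gene between libraries and not genes with each other.

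**Figure D1:**
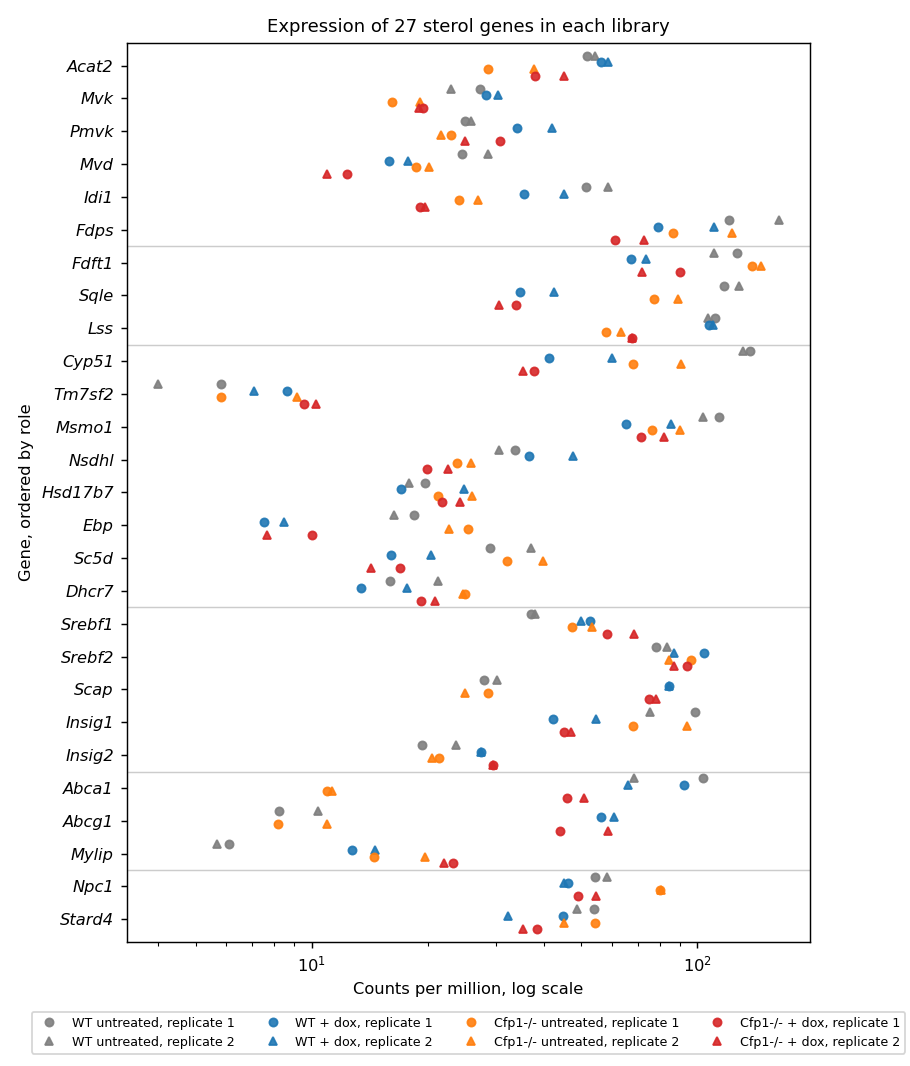
Expression of the 27 genes in each of the 8 libraries, in CPM on a log axis, with genes on the vertical axis grouped by role (mevalonate, squalene and lanosterol, later steps, sterol sensing, LXR targets, transport). Circles are replicate 1 and triangles replicate 2. Abca1 stands apart in untreated Cfp1-/- cells, at 10.9 and 11.3 CPM against 104 and 68.6 CPM in untreated WT cells.

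The first comparison asked how the set responded to doxorubicin in WT ES cells. Of the 27 genes, 9 fell and 5 rose at an adjusted p below 0.05. Every adjusted p given here is from the quasi-likelihood test of edgeR, Benjamini-Hochberg adjusted over all genes tested in its fit. These were 15762 genes for the values with all replicates and 16093 to 16367 where 1 library was left out. Over all genes tested 22.8% were called lower and 27.0% higher. The median log2 fold change was -0.12 over the 27 genes and 0.06 over all genes tested. Of the 17 synthesis genes, 8 fell and 1 rose, with a median of -0.45. Without Cfp1, 9 of the 27 fell and 4 rose, against 21.4% and 27.7% of all genes, and 7 of the 17 synthesis genes fell and 0 rose. There the median was -0.12 over the 27 genes, -0.30 over the synthesis genes and 0.01 over all genes. The synthesis genes changed in an uneven manner, with Sqle, Cyp51 and Ebp falling by more than 1 on the log2 scale in both lines while Lss, Mvk and Hsd17b7 had values near 0. Scaling to total counts moved the median of all genes by 0.31 in WT and by 0.21 in Cfp1-/- cells, and turned the split of the 27 genes into 11 higher and 4 lower in WT and 9 higher and 8 lower in Cfp1-/- cells. The shares of all genes called given above are from TMM scaling and were not counted for total counts. Under that scaling the median of the 27 genes turned positive, at 0.19 and 0.09, and that of the synthesis genes was -0.14 and -0.09. It ended the WT calls of Sc5d (-0.54, adjusted p = 0.0502), Insig1 (-0.53, 0.0545), Mvd (-0.35, 0.122), Msmo1 (-0.21, 0.311) and Idi1 (-0.14, 0.515) and the Cfp1-/- call of Fdps (-0.43, 0.153). Total count scaling called Mvk (0.54, edgeR adjusted p = 0.0262), Lss (0.31, 0.0456), Tm7sf2 (0.99, 0.023) and Nsdhl (0.70, 0.00847) higher in WT cells. Srebf2 (0.56, 0.00585) and Insig2 (0.67, 0.00644) were added there as well. In Cfp1-/- cells that scaling added Acat2 (0.54, 0.028), Pmvk (0.53, 0.0243), Lss (0.37, 0.0254), Srebf1 (0.55, 0.0118) and Mylip (0.61, 0.0323). Without replicate 1 of untreated WT cells the WT median of the 27 genes was 0.03.

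**Figure D2:**
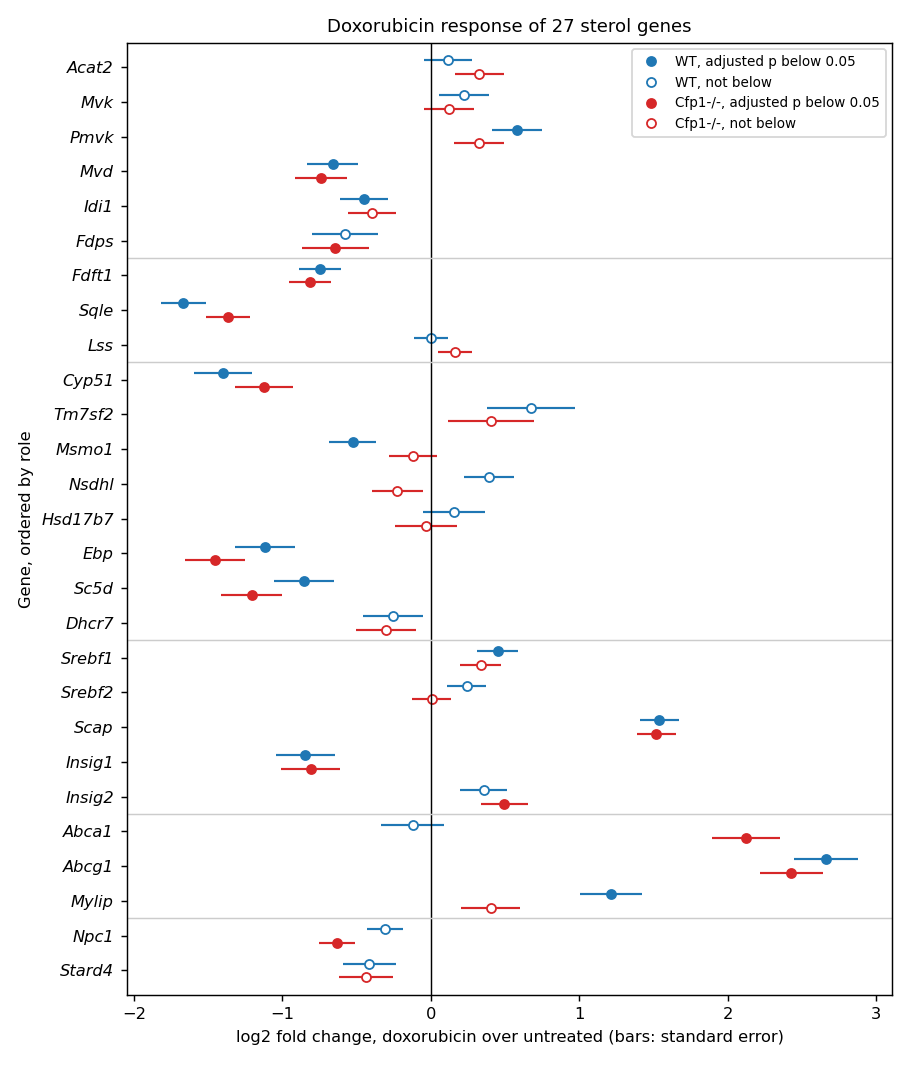
Log2 fold change of each gene, doxorubicin over untreated, in WT (blue) and Cfp1-/- ES cells (red), with bars of 1 standard error. Filled points passed an adjusted p of 0.05 in edgeR. Abca1 is the gene with the widest separation between lines, at -0.12 in WT and 2.12 in Cfp1-/- cells.

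The mevalonate steps gave a mixed picture. Mvd, the decarboxylase that makes isopentenyl diphosphate, had 24.6 and 28.6 CPM in untreated and 15.8 and 17.8 CPM in treated WT cells. The groups did not overlap, and Mvd fell by 0.66 ± 0.17 on the log2 scale (edgeR adjusted p = 0.0103). Here and below, ± after a log2 value is 1 standard error, derived from the edgeR test statistic, and not an SD of replicates. In cells lacking Cfp1, Mvd went from 18.7 and 20.2 CPM to 12.4 and 10.97 CPM, a log2 fold change of -0.74 ± 0.17 (edgeR adjusted p = 0.00668). Idi1, the isomerase of isopentenyl diphosphate, had 51.5 and 58.8 CPM in untreated and 35.5 and 45.0 CPM in treated WT cells, a fall of 1.37-fold (edgeR adjusted p = 0.0404). Idi1 passed in 8 of 17 alternative fits. In Cfp1-/- cells Idi1 had a log2 fold change of -0.40 (edgeR adjusted p = 0.0712, and 0.0272 with the replicate block). This Cfp1-/- change passed in 3 of 17 alternative fits. Fdps had 121 and 163 CPM in untreated and 79.0 and 111 CPM in treated WT cells, where replicate 2 was the higher of both pairs. Its log2 fold change was -0.58 ± 0.22 in WT (edgeR adjusted p = 0.0552, and 7.18e-04 with the replicate block). This WT change passed in 8 of 17 alternative fits. In the Cfp1-/- line Fdps fell by 0.64 ± 0.23 (edgeR adjusted p = 0.0389), from 86.6 and 123 CPM to 61.1 and 72.8 CPM.

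Pmvk, the phosphomevalonate kinase, was the synthesis gene called higher with TMM scaling, and only in WT cells. It had 25.0 and 25.9 CPM in untreated and 34.1 and 42.0 CPM in treated WT cells, a log2 fold change of 0.58 ± 0.17 (edgeR adjusted p = 0.0174), and 0.32 ± 0.17 in Cfp1-/- cells (edgeR adjusted p = 0.145). Mvk, the kinase before it, had log2 fold changes of 0.22 and 0.12 in WT and Cfp1-/- cells and Acat2, the cytosolic thiolase that starts the pathway, of 0.12 and 0.33, none of which passed the test.

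The squalene steps held the strongest decrease of the synthesis genes in WT cells. Sqle (ENSMUSG00000022351, chr15:59146632-59162747, plus strand, NCBIm37), the squalene epoxidase and a rate-limiting enzyme of the pathway, had 117 and 128 CPM in untreated WT cells and 34.7 and 42.5 CPM after doxorubicin. This was a fall of 3.18-fold (log2 fold change -1.67 ± 0.15, edgeR adjusted p = 2.74e-05). Without Cfp1, Sqle went from 76.95 and 88.9 CPM to 34.0 and 30.6 CPM, a log2 fold change of -1.36 ± 0.15 (edgeR adjusted p = 9.07e-05). Treated cells of both lines thus reached 30.6 to 42.5 CPM from starting levels that did not overlap. Fdft1, the squalene synthase, had 127 and 110 CPM in untreated and 67.3 and 73.7 CPM in treated WT cells, and fell by 0.75 ± 0.14 on the log2 scale (edgeR adjusted p = 0.00199). In cells lacking Cfp1, it fell by 0.82 ± 0.14 (edgeR adjusted p = 0.00129). Lss, the cyclase that makes lanosterol, had 111 and 107 CPM in untreated and 107 and 110 CPM in treated WT cells, overlapping groups with a log2 fold change of 0.00 ± 0.11. Neighbouring enzymes of the same branch therefore differed in their values, from -1.67 for Sqle to 0.00 for Lss.

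Among the enzymes after lanosterol, Cyp51, Ebp and Sc5d fell in both lines. Cyp51, the lanosterol demethylase, had 137 and 131 CPM in untreated and 41.3 and 60.1 CPM in treated WT cells, a fall of 2.64-fold (log2 fold change -1.40 ± 0.19, edgeR adjusted p = 3.36e-04). In Cfp1-/- cells Cyp51 had 68.1 and 90.6 CPM before and 37.6 and 35.2 CPM after treatment (log2 fold change -1.12 ± 0.20, edgeR adjusted p = 0.00128). Ebp, a sterol isomerase, had 18.4 and 16.3 CPM in untreated and 7.51 and 8.50 CPM in treated WT cells, a log2 fold change of -1.12 ± 0.20 (edgeR adjusted p = 0.00151). In the Cfp1-/- line Ebp fell from 25.5 and 22.7 CPM to 9.99 and 7.67 CPM (log2 fold change -1.45 ± 0.20, edgeR adjusted p = 3.58e-04), and the difference between the lines did not pass the test (edgeR adjusted p = 0.702). Sc5d, the sterol C5 desaturase, fell by 0.85 ± 0.20 in WT (edgeR adjusted p = 0.00677) and by 1.21 ± 0.21 in Cfp1-/- cells (edgeR adjusted p = 0.00116). Treated libraries of Sc5d held 14.2 to 20.4 CPM and untreated ones 28.9 to 39.7 CPM.

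Msmo1, the sterol C4 methyl oxidase, fell in WT cells by 0.53 ± 0.16 (edgeR adjusted p = 0.0210), from 114 and 104 CPM to 65.5 and 85.3 CPM. The Cfp1-/- value of Msmo1 was -0.12 ± 0.16 (edgeR adjusted p = 0.564), and the difference between lines of 0.41 ± 0.23 did not pass the test (edgeR adjusted p = 0.531). Nsdhl, which acts with Msmo1, had 33.7 and 30.6 CPM in untreated and 36.5 and 47.7 CPM in treated WT cells, a log2 fold change of 0.39 ± 0.17 (edgeR adjusted p = 0.0827, and 0.0488 with the replicate block). The WT change of Nsdhl passed in 4 of 17 alternative fits. Without Cfp1, its value was -0.23 ± 0.17, with 23.8 and 25.9 CPM before and 19.9 and 22.6 CPM after treatment. Tm7sf2 had 5.83 and 3.99 CPM in untreated and 8.65 and 7.07 CPM in treated WT cells (edgeR adjusted p = 0.0859). Hsd17b7 and Dhcr7, which act at the sterol C3 and C7 positions, had log2 fold changes of 0.16 and -0.25 in WT and -0.03 and -0.30 in Cfp1-/- cells, none past the test. With the incomplete run kept in, the Ebp value in Cfp1-/- cells would be -1.76 in place of -1.45 and that of Nsdhl -0.48 in place of -0.23. Ebp and Nsdhl lie on chromosome X, whose 580 genes tested had a median log2 fold change of -0.28 in WT and -0.27 in Cfp1-/- cells. Of these genes 29.7% and 27.8% were called lower, against 22.8% and 21.4% of all genes. The part of this in the values of Ebp and Nsdhl was not tested.

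Of the 5 sterol sensing genes, Scap rose and Insig1 fell in both lines. Scap (ENSMUSG00000032485, chr9:110235792-110287450, plus strand, NCBIm37), the SREBP escort, had 27.9 and 30.3 CPM in untreated and 84.6 and 84.3 CPM in treated WT cells, a rise of 2.90-fold (log2 fold change 1.54 ± 0.13, edgeR adjusted p = 2.26e-05). In cells lacking Cfp1, Scap went from 28.7 and 24.9 CPM to 74.98 and 78.3 CPM, a rise of 2.86-fold (edgeR adjusted p = 2.81e-05). The 4 treated libraries lay well above the 4 untreated ones, and the difference between lines was -0.02 ± 0.18. Insig1, an SREBP retention factor and itself a known SREBP target, moved the other way. It had 98.7 and 75.5 CPM in untreated and 42.4 and 54.5 CPM in treated WT cells, a log2 fold change of -0.85 ± 0.20 (edgeR adjusted p = 0.00642), and -0.81 ± 0.20 in Cfp1-/- cells (edgeR adjusted p = 0.00817). Insig2, the second retention factor, had 19.3 and 23.7 CPM in untreated and 27.5 and 27.4 CPM in treated WT cells, a log2 fold change of 0.35 ± 0.16 (edgeR adjusted p = 0.0889). In Cfp1-/- cells Insig2 rose by 1.41-fold (log2 fold change 0.49 ± 0.16, edgeR adjusted p = 0.0270).

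Of the factors themselves, Srebf1 rose in WT cells from 37.1 and 37.9 CPM to 52.5 and 50.0 CPM, a log2 fold change of 0.45 ± 0.14 (edgeR adjusted p = 0.0212). In the Cfp1-/- line its value was 0.33 ± 0.14 (edgeR adjusted p = 0.0665, and 0.0396 with the replicate block). That Cfp1-/- value passed in 2 of 17 alternative fits. Srebf2, which encodes the factor most tied to cholesterol synthesis, had 78.0 and 83.5 CPM in untreated and 104 and 87.2 CPM in treated WT cells, a log2 fold change of 0.24 ± 0.13, and 0.00 ± 0.13 in Cfp1-/- cells, neither past the test.

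The LXR targets held the largest increase of the set in each line, that of Abcg1. Abcg1 (ENSMUSG00000024030, chr17:31194643-31252722, plus strand, NCBIm37), an efflux pump that loads cholesterol onto high density lipoprotein, had 8.21 and 10.4 CPM in untreated and 56.2 and 60.8 CPM in treated WT cells, a rise of 6.31-fold (log2 fold change 2.66 ± 0.22, edgeR adjusted p = 1.86e-05). Without Cfp1, it went from 8.17 and 10.9 CPM to 44.1 and 58.6 CPM, a rise of 5.38-fold (edgeR adjusted p = 3.08e-05), and the lines overlapped both before and after treatment. Mylip had 6.11 and 5.69 CPM in untreated and 12.8 and 14.6 CPM in treated WT cells, a rise of 2.31-fold (edgeR adjusted p = 0.00114). In cells lacking Cfp1, which started higher at 14.5 and 19.7 CPM, treated libraries had 23.3 and 22.0 CPM (log2 fold change 0.40 ± 0.20, edgeR adjusted p = 0.120).

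Abca1 (ENSMUSG00000015243, chr4:53043659-53172767, minus strand, NCBIm37), the pump that starts the assembly of high density lipoprotein, behaved differently in the lines. In WT cells it had 104 and 68.6 CPM before and 92.2 and 66.1 CPM after treatment, overlapping groups with a log2 fold change of -0.12 ± 0.21 (edgeR adjusted p = 0.658). In Cfp1-/- cells it had 10.9 and 11.3 CPM before and 45.9 and 50.8 CPM after treatment, a rise of 4.36-fold (log2 fold change 2.12 ± 0.23, edgeR adjusted p = 8.61e-05). Treated Cfp1-/- cells thereby remained below every WT library. The difference between the responses was 2.25 ± 0.31 on the log2 scale (edgeR adjusted p = 0.0315, and 0.00140 with the replicate block). Over all genes tested 0.0952% had a higher and 0.152% a lower response in Cfp1-/- cells at this threshold.

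The call for Abca1 was kept in 10 of 16 alternative fits, with differences from 1.87 to 2.5. It was lost in 6 of the 8 fits that left out 1 library: without replicate 1 of untreated WT cells (1.87, edgeR adjusted p = 0.0532), replicate 2 of treated WT cells (2.02, adjusted p = 0.0580), replicate 1 (2.21, 0.161) or 2 (2.26, 0.129) of untreated Cfp1-/- cells, and replicate 1 (2.31, 0.146) or 2 (2.17, 0.202) of treated Cfp1-/- cells. For the other 26 genes the difference between the responses ran from -0.81 ± 0.29 for Mylip (edgeR adjusted p = 0.337) and -0.62 ± 0.24 for Nsdhl (edgeR adjusted p = 0.379) to 0.41 for Msmo1. Of the 27 genes 0 had a lower response in Cfp1-/- cells by adjusted p in edgeR or DESeq2, and 2 (Mylip and Nsdhl) at an unadjusted p below 0.05. A p above the threshold does not show that the remaining genes respond alike.

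Macrophages and liver cells are known for high LXR activity, and their markers were looked at beside these genes. The 4 macrophage markers summed to 7.05 to 8.09 CPM in untreated and 20.6 to 21.5 CPM in treated WT cells, and to 11.3 to 12.2 CPM and 7.45 to 10.8 CPM in Cfp1-/- cells. Nearly all of this was Cd68, while Lyz2 had at most 2 counts in any library and Csf1r and Ptprc at most 17. The 4 hepatocyte markers summed to 5.52 to 19.5 CPM in untreated and 20.3 to 29.7 CPM in treated WT cells, and to 5.02 to 5.96 CPM and 36.6 to 41.7 CPM in Cfp1-/- cells, nearly all of it Apob. Alb had 0 counts in both untreated WT libraries, 0.0444 and 0.120 CPM in untreated and 0.845 and 2.12 CPM in treated Cfp1-/- cells (at most 45 counts), whereas Ttr and Fgb had at most 1 and 2 counts. The 5 primitive endoderm markers summed to 2.67 to 3.17 CPM in untreated and 11.7 to 13.2 CPM in treated WT cells, and to 8.48 to 9.76 CPM and 24.2 to 25.1 CPM in Cfp1-/- cells. Pdgfra made up most of these sums outside untreated WT cells, where it had 1.07 and 1.51 CPM, while Gata6, Gata4, Sox17 and Foxa2 had at most 41, 27, 14 and 7 counts. The 6 fibroblast markers summed to 9.57 to 11.1 CPM in untreated and 16.9 to 24.7 CPM in treated WT cells. In Cfp1-/- cells they summed to 2.88 to 2.97 CPM and 14.6 to 17.0 CPM. Col1a1, the collagen I chain, had 0.621 and 0.240 CPM in untreated and 9.83 and 11.6 CPM in treated Cfp1-/- cells. In WT cells it had 4.25 and 2.58 CPM and 17.6 and 9.67 CPM. Col3a1 instead had 2.90 and 2.09 CPM in untreated and 1.70 and 1.17 CPM in treated WT cells. It had at most 0.0768 CPM in Cfp1-/- cells. Col1a2 had 2.34 and 2.58 CPM before and 2.27 and 1.68 CPM after treatment in WT cells. In Cfp1-/- cells it had 0.888 and 0.760 CPM and 1.46 and 2.02 CPM. Thy1 was higher in treated cells of both lines, while Postn and Lum had at most 13 and 2 counts. The part of these marker genes in the values of the LXR targets was not tested.

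Both transport genes had lower values after treatment. Npc1, which moves cholesterol out of lysosomes, fell in Cfp1-/- cells by 0.63 ± 0.12 (edgeR adjusted p = 0.00230), from 80.1 and 80.5 CPM to 49.0 and 54.5 CPM. In WT cells it had 54.4 and 58.4 CPM before and 46.1 and 45.0 CPM after treatment, a log2 fold change of -0.31 ± 0.12 (edgeR adjusted p = 0.0610, and 0.0434 with the replicate block). The WT change of Npc1 passed in 2 of 17 alternative fits. Stard4, a cytosolic carrier of sterol, had log2 fold changes of -0.41 ± 0.18 in WT (edgeR adjusted p = 0.0816, and 0.0160 with the replicate block) and -0.44 ± 0.18 in Cfp1-/- cells (edgeR adjusted p = 0.0694, and 0.0156 with the block). Of 17 alternative fits, Stard4 passed in 3 in WT and in 8 in Cfp1-/- cells.

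Under the limits of the study, a change of 2.5-fold or more and a mean normalized count of 200 or more beside the adjusted p, 2 of the 27 genes were higher (Scap and Abcg1) and 2 lower (Sqle and Cyp51) in treated WT cells, against 5.1% and 2.8% of all genes. In the Cfp1-/- line 3 were higher (Scap, Abca1 and Abcg1) and 2 lower (Sqle and Ebp), against 5.3% and 2.21%. Leaving out 1 library at a time ended some calls of small size. In WT cells the number of genes that rose went from 5 to 3 without replicate 1 of untreated cells, where Pmvk had an adjusted p of 0.0764 and Srebf1 of 0.0981, and likewise without its replicate 2 (0.0608 and 0.0837). Idi1 lost its call in 6 of the 8 such fits (adjusted p from 0.0519 to 0.207), Msmo1 without replicate 1 of untreated or of treated WT cells (0.102 and 0.126) and Mvd without replicate 2 of untreated or replicate 1 of treated WT cells (0.0650 and 0.0555). Without Cfp1, the calls of Insig2 (adjusted p from 0.0790 to 0.118) and Fdps (from 0.0872 to 0.257) were lost in 4 and 3 of these fits. There Insig1 lost its call without replicate 2 of untreated or of treated Cfp1-/- cells (0.0667 and 0.0517) and Mvd without replicate 2 of treated cells (0.0722). The calls of Sqle, Cyp51, Ebp, Sc5d, Fdft1, Scap and Abcg1 in both lines, Mylip and Insig1 in WT and Abca1 and Npc1 in Cfp1-/- cells were kept in all 8.

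**Figure D3:**
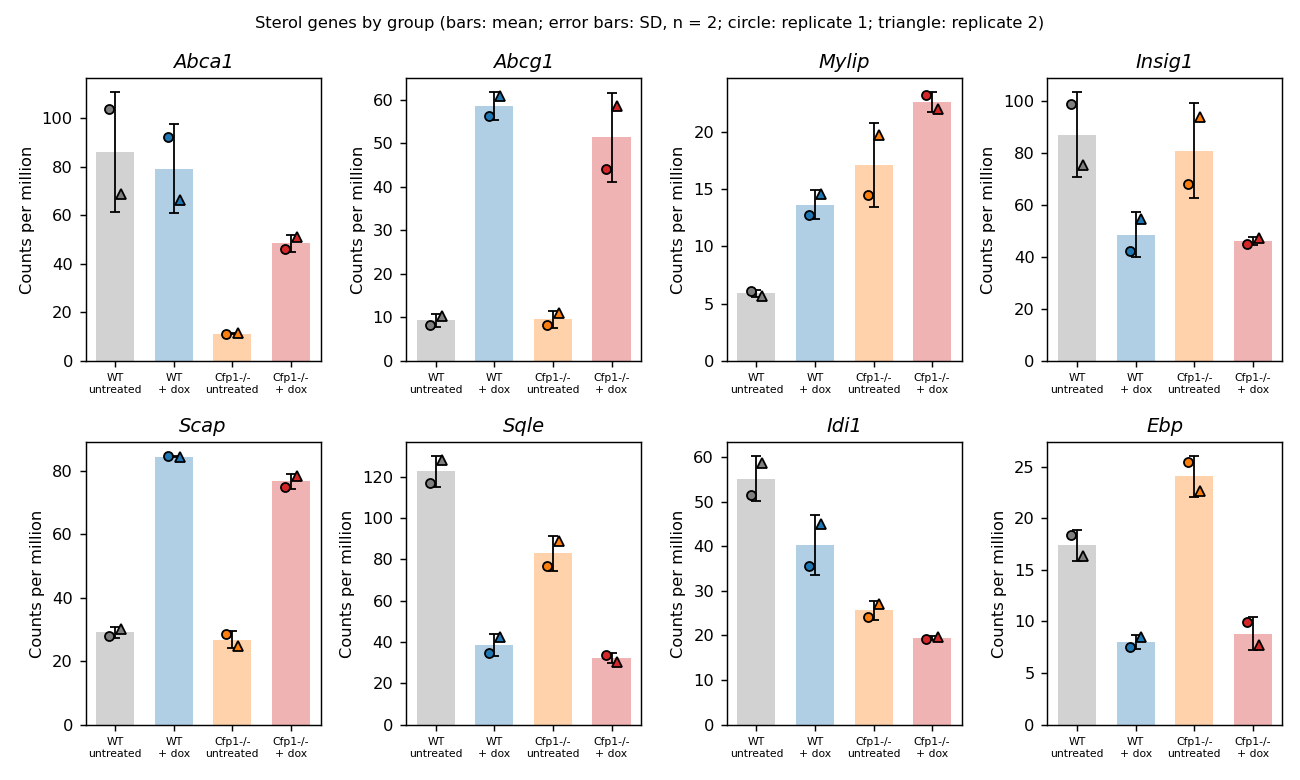
CPM of 8 genes in the 4 groups, with bars at the mean, error bars of 1 SD (n = 2) and the replicates as points. Abcg1 and Scap are high in both treated groups, Sqle and Ebp low in both, Idi1 low in all Cfp1-/- libraries, and Abca1 low in untreated Cfp1-/- cells, where it has 10.9 and 11.3 CPM.

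The second comparison asked how the set differed between Cfp1-/- and WT cells. Without doxorubicin, 7 of the 27 genes were lower and 3 higher in Cfp1-/- cells, against 17.2% and 18.7% of all genes, and the medians were -0.11 over the 27 genes and 0.01 over all genes. Of the 17 synthesis genes 6 were lower and 0 higher, with a median of -0.39, and 11 of the 17 had values below 0. Scaling to total counts moved the median of all genes by 0.19 and gave 4 lower and 6 higher, with medians of 0.09 over the 27 and -0.19 over the synthesis genes. The shares of all genes called were not counted for that scaling. The synthesis median was -0.24 without replicate 1 of untreated Cfp1-/- cells. The untreated WT libraries that enter here also enter the WT response to doxorubicin, and the untreated Cfp1-/- libraries the response of Cfp1-/- cells.

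Abca1 had the largest difference. It was 7.75-fold lower in untreated Cfp1-/- cells (log2 difference -2.95 ± 0.23, edgeR adjusted p = 6.68e-05), at the values given above. Mylip was 2.90-fold higher (log2 difference 1.54 ± 0.21, edgeR adjusted p = 7.53e-04). Abcg1, the third LXR target, had a log2 difference of 0.04 ± 0.21, so the 3 genes differed in their order between the lines. By the limits of the study 1 gene was higher (Mylip) and 1 lower (Abca1), against 1.82% and 1.52% of all genes. Npc1 was higher by 0.51 ± 0.12 (edgeR adjusted p = 0.0104) and Srebf1, with 47.3 and 53.3 CPM in Cfp1-/- cells, by 0.42 ± 0.14 (edgeR adjusted p = 0.0365).

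Among the synthesis genes Idi1 was 2.15-fold lower, at 24.1 and 27.0 CPM in untreated Cfp1-/- cells (log2 difference -1.11 ± 0.16, edgeR adjusted p = 0.00110). Lss, which did not move with doxorubicin beyond the test, had 57.8 and 63.4 CPM in Cfp1-/- against 111 and 107 CPM in WT cells, a log2 difference of -0.84 ± 0.11 (edgeR adjusted p = 7.39e-04). Cyp51 was lower by 0.76 ± 0.19 (edgeR adjusted p = 0.0134) and Sqle by 0.56 ± 0.14 (edgeR adjusted p = 0.0139). Acat2, with 28.7 and 37.7 CPM against 51.7 and 54.2 CPM, differed by -0.67 ± 0.16 (edgeR adjusted p = 0.0109), and Mvk by -0.51 ± 0.17 (edgeR adjusted p = 0.0382). With the replicate block, Mvd (-0.45, adjusted p = 0.0363), Fdps (-0.44, 0.00613) and Msmo1 (-0.39, 0.0269) were also lower, and Ebp (0.47, 0.0446) higher. Of 17 alternative fits, Mvd, Fdps and Msmo1 each passed in 1, the block, and Ebp in 2. Mvd and Msmo1 lie on chromosome 8, whose 821 genes tested had a median log2 difference of -0.23 in untreated and -0.26 in treated Cfp1-/- cells, and 26.3% and 21.1% of them were called lower. The part of this in both genes' values was not tested.

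Mvk and Srebf1 each lost the call in 6 of the 8 fits that left out 1 library (adjusted p from 0.0520 to 0.224 and from 0.0509 to 0.168), and Srebf1 also in DESeq2. The lower count of 7 fell to 4 without replicate 2 of untreated WT cells, where Acat2 (adjusted p = 0.0538), Mvk (0.0520) and Sqle (0.0816) lost their calls, and to 3 without replicate 1 of untreated Cfp1-/- cells, where Cyp51 (0.114) did too. Cyp51 also lost its call without replicate 1 of untreated WT cells (0.0512). The higher count of 3 fell to 1 without replicate 1 of untreated WT cells, with Npc1 at 0.0667 and Srebf1 at 0.131. Abca1, Idi1, Lss and Mylip kept their calls in all 8 of these fits.

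With doxorubicin, 5 of the 27 genes were lower and 1 higher in Cfp1-/- than in WT cells, against 12.1% and 16.0% of all genes. The medians were -0.14 over the 27 genes, -0.45 over the 17 synthesis genes and 0.02 over all genes. Without replicate 2 of treated WT cells the synthesis median was -0.19, and the 27 genes had a median of -0.25 when replicate 1 of treated WT cells was left out. Idi1 (log2 difference -1.05 ± 0.17, edgeR adjusted p = 0.00225) and Lss (-0.68 ± 0.11, edgeR adjusted p = 0.00292) were lower in treated as in untreated cells. Nsdhl was 1.98-fold lower, at 19.9 and 22.6 CPM against 36.5 and 47.7 CPM (log2 difference -0.99 ± 0.17, edgeR adjusted p = 0.00379). Mvk was lower by 0.61 ± 0.17 (edgeR adjusted p = 0.0249) and Abca1 by 0.71 ± 0.22 (edgeR adjusted p = 0.0363). Mylip stayed higher in Cfp1-/- cells, by 0.73 ± 0.20 (edgeR adjusted p = 0.0250). By the limits of the study 0 genes were higher and 0 lower, against 1.61% and 1.08% of all genes. The share of all genes called was not counted with the replicate block, which raised the number of lower genes from 5 to 10. It added Acat2 (passing in 4 of 17 alternative fits), Pmvk (1), Mvd (8), Fdps (2) and Cyp51 (3), with adjusted p from 0.00518 to 0.0423. Without replicate 1 or without replicate 2 of treated Cfp1-/- cells the number was 3, since Mvk and Abca1 lost their calls (adjusted p from 0.106 to 0.169). Abca1 lost its call as well without replicate 1 of treated WT cells (-0.46, adjusted p = 0.176), without replicate 1 of untreated Cfp1-/- cells (0.0532) and under total count scaling (0.0622), and Mvk without replicate 2 of treated WT cells (0.0927). The Mylip call was lost without any 1 of the 4 treated libraries, with adjusted p from 0.0573 to 0.129.

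**Figure D4:**
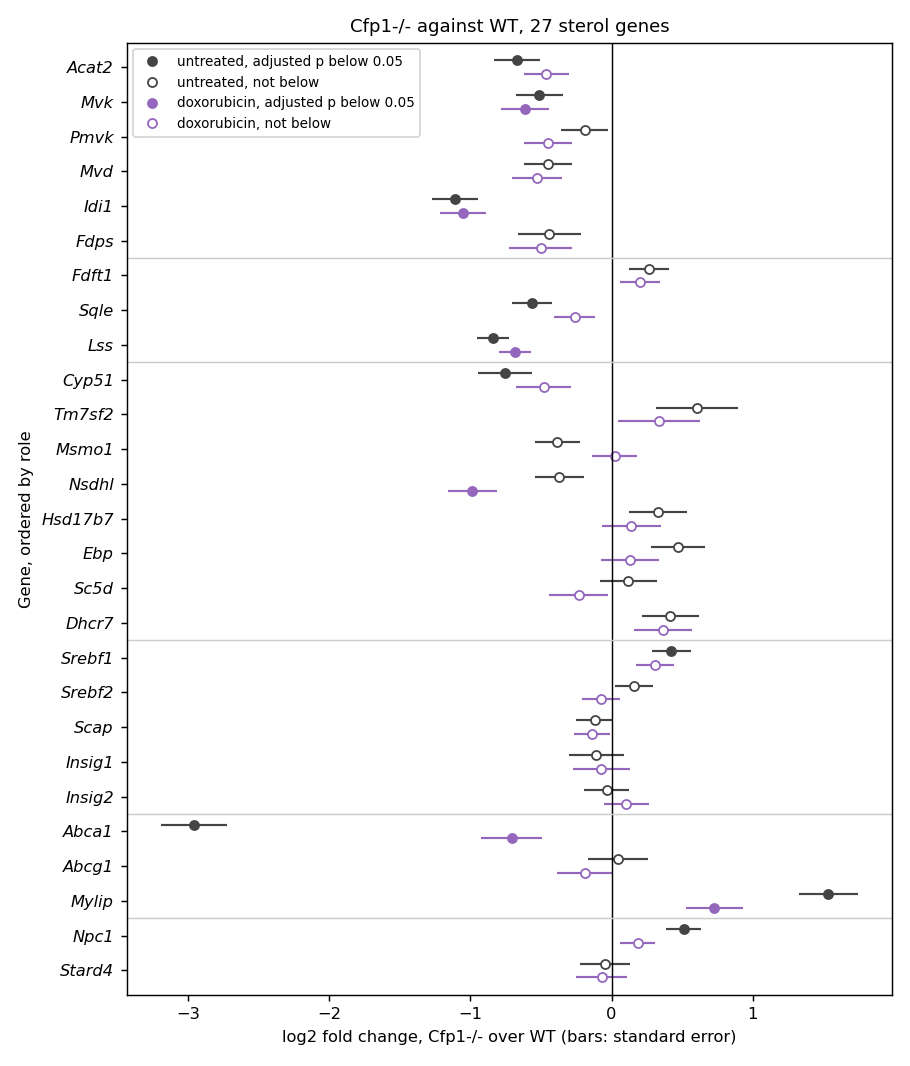
Log2 difference of each gene, Cfp1-/- over WT, in untreated (grey) and doxorubicin-treated cells (purple), with bars of 1 standard error. Filled points passed an adjusted p of 0.05 in edgeR. Idi1, Lss and Abca1 lie below 0 and Mylip above 0 in both states, with Abca1 at -2.95 untreated and -0.71 treated.

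Other genes of the same pathways were counted from lists chosen by function, and the counts stand beside 22.8% of all genes called lower and 27.0% called higher in WT, and 21.4% and 27.7% in Cfp1-/- cells. Of the 3 further sterol synthesis genes tested, 1 fell and 0 rose in each line: Lbr, the lamin B receptor with sterol C14 reductase activity, fell by 1.35 ± 0.19 in WT (edgeR adjusted p = 3.45e-04) and by 1.06 ± 0.19 in Cfp1-/- cells (edgeR adjusted p = 0.00146). Lbr had 315 and 400 CPM in untreated and 117 and 164 CPM in treated WT cells, on a gene whose product also anchors chromatin at the nuclear envelope. Of 13 genes of SREBP transport and turnover, 4 fell and 1 rose in WT, and 3 fell and 1 rose in Cfp1-/- cells. Sec24a, a coat protein of vesicles leaving the endoplasmic reticulum, rose by 0.97 and 1.16 on the log2 scale in WT and Cfp1-/- cells, whereas Ubxn8 fell by 0.99 and 1.03 and Sar1b, a GTPase of the same vesicle coat, by 0.60 and 0.45.

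Of 17 fatty acid synthesis genes, 6 fell and 3 rose in WT, and 7 fell and 4 rose in Cfp1-/- cells, beside the same 22.8% lower and 27.0% higher, and 21.4% and 27.7%, of all genes. Lpin1, a phosphatidate phosphatase and transcriptional coactivator, rose by 3.17 ± 0.14 in WT (edgeR adjusted p = 1.79e-06) and by 2.30 ± 0.14 in Cfp1-/- cells (edgeR adjusted p = 5.83e-06), from 21.7 and 25.6 CPM to 230 and 195 CPM in WT. Scd2, a stearoyl-CoA desaturase, fell by 1.04 and 1.79 and Elovl1, a fatty acid elongase, rose by 1.27 and 1.34 in WT and Cfp1-/- cells. Of 12 genes of the isoprenoid and dolichol branch, 6 fell and 1 rose in WT, and 5 fell and 2 rose in Cfp1-/- cells, read beside those shares. Rabggtb, a subunit of the Rab geranylgeranyl transferase, fell by 1.70 and 1.18 and Pdss1, which makes the side chain of ubiquinone, by 0.82 and 0.67, whereas the dolichol kinase Dolk rose by 0.90 and 1.05.

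The list of sterol trafficking, storage and oxysterol genes had more members called higher than lower. Of all genes, 27.0% were called higher and 22.8% lower in WT, and 27.7% and 21.4% in Cfp1-/- cells. Of the list's 22 genes tested, 12 rose and 2 fell in WT, and 11 rose and 1 fell in Cfp1-/- cells, with median log2 fold changes of 0.63 and 0.80 against 0.06 and 0.01 over all genes tested. Cyp27a1, a sterol 27-hydroxylase that makes an LXR ligand, had 1.03 and 0.923 CPM in untreated and 18.2 and 18.5 CPM in treated WT cells, a log2 fold change of 4.22 ± 0.25 (edgeR adjusted p = 4.40e-06). In cells lacking Cfp1, it went from 0.533 and 0.720 CPM to 14.98 and 13.98 CPM (log2 fold change 4.51 ± 0.26, edgeR adjusted p = 5.65e-06). Cyp46a1, a sterol 24-hydroxylase, had 5 and 2 counts in untreated and 50 and 53 counts in treated WT cells, and 2 and 0 counts against 20 and 50 counts in Cfp1-/- cells, where both untreated libraries lie at or under 3 counts. Stard5, a sterol carrier, rose by 2.59 and 2.04 in WT and Cfp1-/- cells. Over these 67 genes, 0 had a different response between the lines by adjusted p in edgeR, 9 at an unadjusted p below 0.05, and 2 by adjusted p in DESeq2.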

How the data were processed

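RNA-Seq data of WT and Cfp1-/- ES cells with and without doxorubicin were used. The authors aligned paired-end reads with STAR to NCBIm37 (mm9) and counted them on Ensembl exons with HTSeq, strand-specific, in union mode, which leaves out reads on overlapping genes. They deposited raw counts per technical replicate. The authors also deposited normalized counts per biological replicate, a signal equal to counts summed over runs and divided by size factors from DESeq. These include the incomplete run and were used here for the mean limit of 200 alone. Gene coordinates are those of the deposited tables. Msmo1 was matched through its older symbol Sc4mol.

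Technical replicates were summed, without the incomplete run, which leaves n = 2 per group. In the other runs the chi-square per degree of freedom between technical replicates was 0.998 to 1.05, save 9.61 in replicate 1 of treated WT cells. Counting error weighs most on genes with few counts, such as Tm7sf2 with 82 to 229 counts per library. edgeR 4.0.16 in R 4.3.3 was run with filterByExpr, TMM, glmQLFit and glmQLFTest, 1 coefficient per group and Benjamini-Hochberg adjustment over 15762 genes, with a common dispersion of 0.0283. CPM used TMM library sizes. Replicate numbers are shared by all groups, and same-numbered replicates deviated together in all 6 pairs of groups (r across genes 0.133 to 0.453), so the number was also fitted as a block, although the labels do not say what it stands for. All 27 genes are named, and of each further list at most 3 genes called in both lines in the same direction with the largest mean change. Alternatives were DESeq2 size factors, DESeq2 1.42.0, total counts, no filter, other choices of technical runs, fits on 2 groups, the limits of the study and each replicate left out. The genes and lists were chosen with earlier results of these data known.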

Additional observations from a re-analysis of the deposited data

Results flagged for a closer look

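Abca1 was the 1 value singled out among the 27 genes, because its response to doxorubicin differed between the lines by the test of the difference itself. The log2 fold change was 2.25 higher in Cfp1-/- than in WT cells (edgeR adjusted p = 0.0315): 2.12 against -0.12. This call was kept in 10 of 16 alternative fits, and most fits that left out 1 library lost it. In the Cfp1-/- line both treated libraries lay above both untreated ones, and in WT cells the groups overlapped. With 2 replicates a group, no group was large enough to be examined for a library far from the others.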

How the results depend on the processing

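Over 71 comparisons of single genes that passed in some fit, 1062 of 1206 alternative values kept their side of the threshold. The call was lost in 79 and gained in 65, and 0 called values changed sign. Sign changes between values that were both not called were left among those kept. Of the comparisons that passed in no fit, 32 changed sign in some fit. Scaling to total counts gave 11 higher and 4 lower genes for the WT response, 9 higher for the Cfp1-/- response, and 6 higher and 4 lower for untreated Cfp1-/- against WT cells. Shares of all genes called were counted only for the edgeR fit described above, with and without the limits of the study. The limits of the study gave 2 higher and 2 lower in the WT response, 2 lower in the Cfp1-/- response, 1 higher and 1 lower between untreated lines, and 0 higher and 0 lower between treated lines. Without a filter on low counts 8 genes were lower between treated lines, and with the replicate block 10. The block ended 0 calls, and the calls it added are given beside the genes. Leaving out 1 library, which leaves a lone sample assumed to vary like the other groups, gave these ranges: WT response 3 to 5 higher and 7 to 10 lower, Cfp1-/- response 3 to 4 higher and 6 to 11 lower, response difference 0 to 1 higher, untreated lines 1 to 3 higher and 3 to 7 lower, and treated lines 0 to 1 higher and 3 to 6 lower. The cause of these changes was not tested. With 2 replicates a group, the smallest difference called among the 27 genes was 0.42 on the log2 scale.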
